A study of Mus musculus with 6 samples.

Results

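The lysyl oxidase family comprises Lox, Loxl1, Loxl2, Loxl3 and Loxl4, taken here as the rows of the deposited gene table that carry these names. All 5 members were found among 54433 rows, and all 5 passed the filter on low counts that left 14889 genes for testing. In the domain annotation deposited with the table, these 5 were the only genes with a lysyl oxidase domain. The mRNA of MC3T3-E1, an established mouse line of osteoblast-like cells, was sequenced in 2 groups of 3 libraries. The title of the series speaks of osteoblasts from mice, whereas the labels of all 6 samples name the cell line, which is followed here. The FR group held MC3T3-E1 cells resistant to 30 ppm fluoride, described as exposed to a gradient of that concentration and derived from wild-type cells by continuous culture in a gradient of 10 ppm fluoride until proliferation was normal. The WT group was the wild-type control, for which the labels name DMEM as the medium and no fluoride. Whether fluoride was still present in FR cultures at harvest is not labelled, and resistance and any fluoride present cannot be told apart. Nor can resistance and the particular cells that were selected be told apart, since the labels do not say how many resistant clones were used. No genetic change or transgene is labelled in either group.

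Lysyl oxidases are secreted copper enzymes that oxidise lysine and hydroxylysine side chains of collagen and elastin to reactive aldehydes, from which the covalent crosslinks of the matrix form. In bone these crosslinks give the collagen fibrils their strength before and during mineral deposition. Lox and Loxl1 are made as precursors whose propeptides are removed outside the cell, whereas Loxl2, Loxl3 and Loxl4 carry scavenger receptor cysteine-rich domains. The deposited annotation gave such a domain to 3 members, Loxl2, Loxl3 and Loxl4, and to neither of the other two.

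The members share a stretch of 11 codons that encodes the copper-binding histidines, a small part of the catalytic domain that these 5 genes have in common. It was read from the GENCODE transcripts of GRCm38, a build other than the GRCm39 of the deposited table, and is given 5′ to 3′ on the coding strand for 4 members, with capitals at the 13 of 33 positions where these 4 differ:
Loxl1: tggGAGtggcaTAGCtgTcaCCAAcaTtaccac
Loxl2: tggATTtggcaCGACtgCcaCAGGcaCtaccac
Loxl3: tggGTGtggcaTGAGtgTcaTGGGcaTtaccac
Loxl4: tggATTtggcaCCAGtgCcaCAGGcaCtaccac

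On GRCm38 the stretch lies at chr9:58293720-58294381 on the minus strand in Loxl1, at chr14:69682316-69689037 on the plus strand in Loxl2, at chr6:83049995-83050125 on the plus strand in Loxl3 and at chr19:42598807-42599899 on the minus strand in Loxl4. In each of the 5 genes, Lox on chromosome 18 included, it is coding sequence that is split by an intron after its base 23. The split falls between exons 3 and 4 of 7 in Lox and Loxl1, between exons 10 and 11 of 14 in Loxl2 and Loxl3, and between exons 11 and 12 of 15 in Loxl4. Lox and Loxl1 were identical at 32 of 33 positions and Loxl2 and Loxl4 at 31, while Loxl1 and Loxl4 were identical at 21. Over the last 600 coding bases, Lox and Loxl1 were 73.2% identical, Loxl2, Loxl3 and Loxl4 were 68.7% to 71.8% identical to each other, and pairs across these 2 subgroups were 59.2% to 60.8% identical. Few runs of 31 bases were shared between members, with 2 between Lox and Loxl1 and 0 among the other pairs, so reads of such a length or longer seldom match 2 members exactly.

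The FR libraries summed to 19246119 to 25185697 counts and the WT libraries to 25700497 to 27140662 counts. At these depths 3 counts in a library equal 0.110 to 0.156 CPM, counts scaled to library size with TMM factors, a limit that covers counting error only. Against the spread that counting alone gives, a pair inside a group varied 2.34 to 3.37 times as much, so none was a copy of another, and a pair across the groups 111 to 133 times as much. Whether the 3 libraries of a group stem from different cultures is not labelled, and the p-values then measure only the spread between these libraries. Of the 10 osteoblast markers, 6 could be tested and all 6 were lower in FR, with summed levels of 1750 to 1790 CPM in FR and 8090 to 8250 CPM in WT. Most of these sums came from Col1a1 (means of 635 CPM in FR and 5055 CPM in WT) and Sparc (685 and 1655 CPM). Col1a1 is also one of the fibrillar collagens described below. Sp7, Alpl, Bglap and Ibsp, which mark maturing osteoblasts, were at or near 0 in both groups. The 6 macrophage markers summed to 10.3 to 12.2 CPM in FR and 6.56 to 7.99 CPM in WT, with Tyrobp listed at 0 in every library and Ptprc and Adgre1 near 0. The 3 that could be tested differed in direction, as Csf1r had 7.14 ± 0.658 CPM in FR and 0.587 ± 0.200 CPM in WT, Cd68 2.26 ± 0.121 CPM in FR and 0.467 ± 0.237 CPM in WT, and Lyz2 1.54 ± 0.196 CPM in FR and 6.15 ± 0.535 CPM in WT (SD, n = 3 each). The summed epithelial markers had 0.519 to 0.999 CPM in FR and 0.585 to 0.698 CPM in WT, and the endothelial 2.36 to 3.48 CPM in FR and 1.29 to 1.76 CPM in WT. The adipocyte markers had 1.16 to 1.94 CPM in FR and 1.25 to 1.79 CPM in WT, and the chondrocyte 48.4 to 51.5 CPM in FR and 70.9 to 73.9 CPM in WT. Nearly all of the chondrocyte sum was Sox9, with means of 49.7 CPM in FR and 70.6 CPM in WT. Acan was listed at 0 in every library, and Col2a1 had means of 0.102 CPM in FR and 0.725 CPM in WT. The 5 markers of smooth muscle and myofibroblasts summed to 169 to 172 CPM in FR and 590 to 597 CPM in WT, nearly all of it Acta2. Of the 3 that could be tested, Acta2 and Tagln were lower in FR and Des was higher. Des had 6.26 ± 0.409 CPM in FR and 1.77 ± 0.138 CPM in WT (SD, n = 3 each). The part of these markers in the results on the family was not tested.

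The family changed in both directions. Loxl1, Loxl4 and Loxl2 were higher in FR, and Loxl3 and Lox were lower. All 5 members had an adjusted p under 0.05 in the quasi-likelihood F-test of edgeR, which was also true of 70.1% of all genes tested, so that the count of called members by itself is near the background. Of all genes, 34.6% were called higher and 35.5% called lower. A change of at least 2-fold was reached by 1 member, Loxl1, while 18.8% of all genes were called with such a change in either direction and 7.4% with such a rise. Loxl3, at a log2 fold change of −0.99, lay just short of it, and was past it when FR1, FR2, WT1 or WT2 was left out (−1.009, −1.005, −1.013 and −1.024) and with no filter (−1.017), which makes 2 such members. The values of FR and WT did not overlap for 4 of the 5 members, where 72.4% of all genes did not overlap. The median log2 fold change, FR over WT, was 0.41 over the members and 0.00 over all genes tested.

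**Figure D1:**
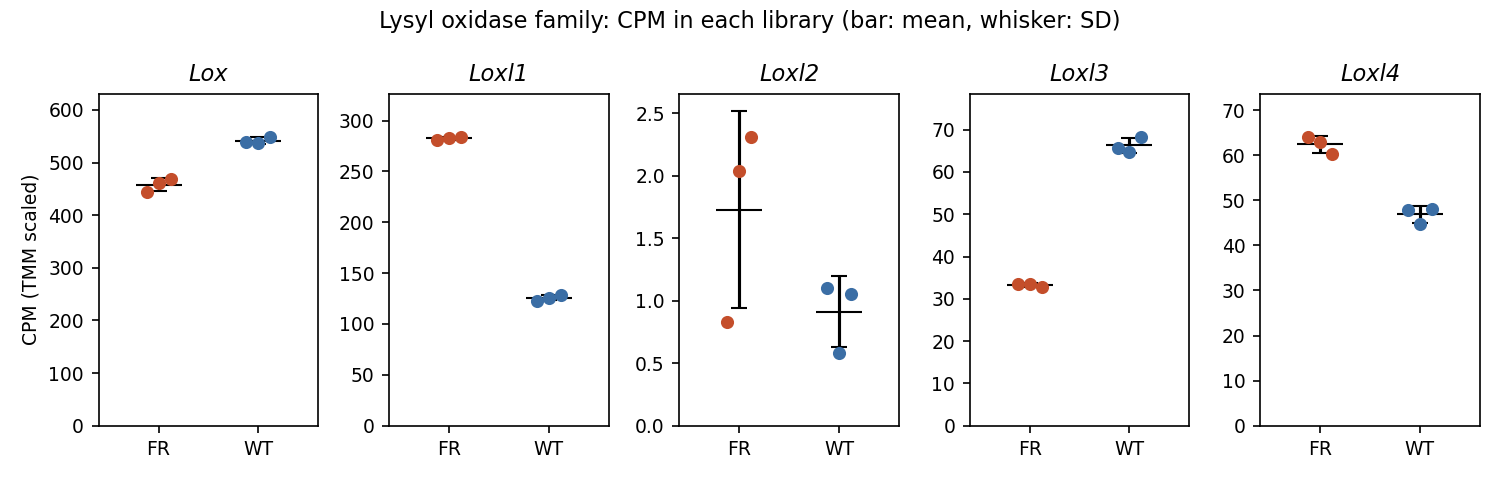
CPM of each member in every library, with FR left of WT in each panel, points for libraries, a bar for the mean and a whisker for the SD (n = 3 each). The 3 FR libraries lie above the 3 WT libraries for Loxl1 and Loxl4 and below them for Lox and Loxl3, while for Loxl2 the FR value of 0.831 CPM lies among the WT values.

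Lox (ENSMUSG00000024529) encodes the founding member, the main collagen crosslinking oxidase of many tissues. It had 8552, 11561 and 9916 counts in FR1, FR2 and FR3, against 14722, 13852 and 14073 counts in WT1, WT2 and WT3. Scaled to depth these were 444, 462 and 468 CPM in FR and 539, 538 and 549 CPM in WT. Each FR library was below each WT library, and the gap between the groups was larger than the spread inside them. Lox fell by 15.5% to a mean of 458 ± 12.5 CPM in FR, against 542 ± 6.12 CPM in WT (SD, n = 3 each; log2 fold change −0.24 ± 0.03 SE; edgeR adjusted p = 1.57e-09). In size the change was ordinary for these cells, as 32.3% of all genes tested had a lower log2 fold change. In bulk RNA, less transcript per cell and fewer cells that carry it cannot be told apart, here and for every other member. The antisense gene Gm41724 overlaps the exons of Lox over 30 bases and had mean levels of 3.29 CPM in FR and 3.14 CPM in WT.

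Loxl1 (ENSMUSG00000032334) encodes the relative of Lox best known for the upkeep of elastic fibres. It had 5411, 7085 and 6007 counts in the FR libraries, against 3359, 3238 and 3281 counts in the WT libraries, although the FR libraries held fewer counts in total. Its levels were 281, 283 and 284 CPM in FR and 123, 126 and 128 CPM in WT, so the groups were far apart and each was tight. Loxl1 rose 2.25-fold in mean CPM (log2 fold change 1.17 ± 0.03 SE; edgeR adjusted p = 2.95e-24), and 5.83% of all genes tested had a higher log2 fold change. The 2 most abundant members, which are each other's closest relatives in sequence, thus changed in opposite directions.

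Loxl4 (ENSMUSG00000025185) encodes a member with scavenger receptor domains that takes part in collagen crosslinking. It had 1234, 1574 and 1276 counts in FR, against 1306, 1153 and 1234 counts in WT. Once scaled to depth, its values of 64.1, 62.9 and 60.3 CPM in FR all lay above the 47.9, 44.7 and 48.1 CPM in WT. Loxl4 rose 1.33-fold (log2 fold change 0.41 ± 0.04 SE; edgeR adjusted p = 1.87e-09), a size that 20.3% of all genes tested exceeded. Its transcripts shared no run of 31 bases with another gene and its counts were whole numbers in all 6 libraries. It was the 1 member found in the RefSeq promoter table of GRCm38. In its promoter window, read on both strands, the SMAD motif CAGAC was found, at position −226 from the start, and 49.6% of all promoters in that table hold it. The TATA box (TATAAA, held by 13.6% of promoters), the CCAAT box (37.4%), the hypoxia response core (ACGTG, 19.6%) and the AP-1 motif (TGANTCA, 7.80%) were not matched in this window.

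Loxl3 (ENSMUSG00000000693) encodes a member that mice need for the development of the palate and the spine. Its estimated counts were 646.58, 837.31 and 694.41 in FR, against 1791.73, 1669.56 and 1752.39 in WT. In CPM it had 33.6, 33.4 and 32.8 in FR and 65.7, 64.8 and 68.3 in WT, so that every FR library lay far below every WT library. Loxl3 fell by 49.8% (log2 fold change −0.99 ± 0.04 SE; edgeR adjusted p = 8.07e-18), and 11.7% of all genes tested had a lower log2 fold change. The exons of Loxl3 overlap those of Htra2, a mitochondrial protease gene on the opposite strand, over 535 bases (11.6% of the exonic bases of Loxl3 in GENCODE, GRCm38), and the sources used here do not say whether strand was kept. Htra2 had 63.4 ± 1.44 CPM in FR and 64.3 ± 2.10 CPM in WT (SD, n = 3 each; log2 fold change −0.02 ± 0.04 SE; edgeR adjusted p = 0.664), and the part of shared reads in the fall of Loxl3 was not tested.

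Loxl2 (ENSMUSG00000034205) encodes a member known for crosslinking type IV collagen of basement membranes. It was rare, with estimated counts of 16.43, 50.85 and 49.21 in FR, against 29.56, 15.10 and 26.83 in WT. Its levels were 0.831, 2.04 and 2.31 CPM in FR and 1.10, 0.582 and 1.05 CPM in WT, and FR1 lay between the WT libraries. The log2 fold change was 0.93 ± 0.34 SE, with an edgeR adjusted p of 0.0198, and this call was lost with limma-voom (adjusted p = 0.0504). It was also lost without FR2 (adjusted p = 0.0908), without FR3 (adjusted p = 0.129) and without WT2 (adjusted p = 0.102), while without FR1 the log2 fold change was 1.24. It overlaps the antisense gene Gm27177 over 301 exonic bases, and Gm27177 had 3, 10.63 and 8.47 counts in FR and 3.97, 4.87 and 5.77 counts in WT, too few to be tested. Of the 31-base runs in its annotated transcripts, 46.4% occur in other genes too, and its deposited count was not a whole number in any library. The part of low counts and of shared sequence in the spread of Loxl2, whose CV was 45.7% in FR and 31.4% in WT, was not tested. The calls of the other 4 members held under each of the 16 alternatives tried.

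**Figure D2:**
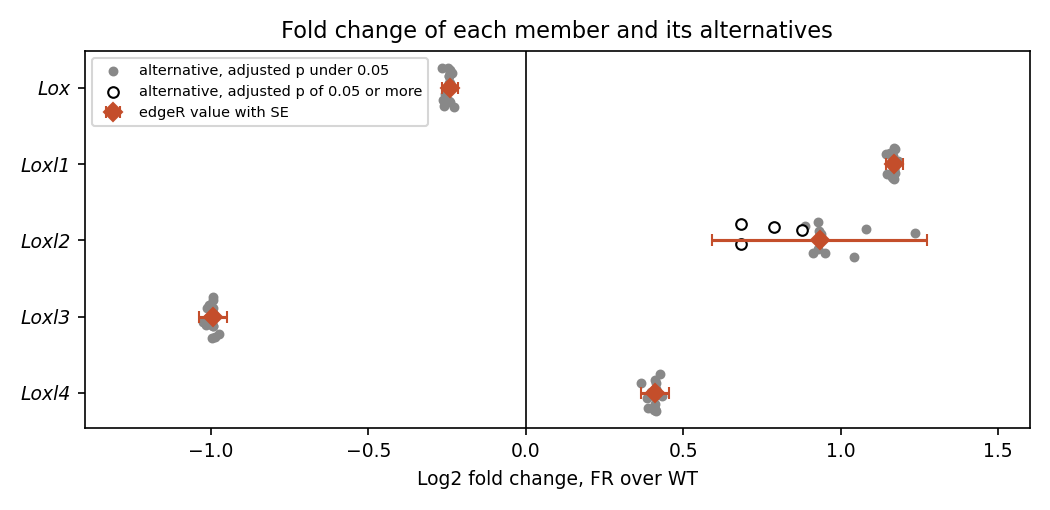
Log2 fold change of each member, FR over WT, with the edgeR value and its SE as a diamond and the 16 alternatives as circles, open where the adjusted p was 0.05 or more. The alternatives span −0.27 to −0.23 for Lox, 1.14 to 1.18 for Loxl1, 0.68 to 1.24 for Loxl2, −1.02 to −0.97 for Loxl3 and 0.36 to 0.43 for Loxl4.

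Levels of different members were compared per gene length, as CPM per kilobase of the deposited length. On this scale Lox was the most abundant member, with levels of 99.4, 103 and 105 in the FR libraries and 121, 120 and 123 in the WT libraries. Loxl1 came next, with levels of 85.2, 85.9 and 86.0 in FR and 37.3, 38.1 and 38.8 in WT. By the mean level over all 6 libraries, Lox ranked 650 and Loxl1 1269 among the 14889 genes tested. Loxl4 had levels of 24.5, 24.0 and 23.0 in FR and 18.3, 17.1 and 18.4 in WT, and Loxl3 had a mean of 8.12 ± 0.107 in FR (SD, n = 3), against 16.0, 15.8 and 16.7 in WT. Loxl2 had levels of 0.273 to 0.761 in FR and 0.191 to 0.361 in WT and stood last. The order was thus the same in both groups, and neighbours did not overlap in either. The closest neighbours were Loxl4 and Loxl3 in WT, at mean levels of 17.9 ± 0.720 and 16.2 ± 0.450 (SD, n = 3), and that order rests on their deposited lengths of 2617 and 4098 bases, since in CPM Loxl3 was the higher of the pair in WT.

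The balance between members shifted more than their sum. The family total, the sum of these levels, was 218, 222 and 223 in FR, against 193, 192 and 197 in WT. That is a mean of 221 ± 2.77 in FR and 194 ± 2.93 in WT (SD, n = 3 each), 13.9% higher in FR. The log2 ratio of the totals was 0.19, and 0.10 with levels not divided by gene length. Lox made up 45.7%, 46.5% and 47.1% of the total in the FR libraries, against 62.6%, 62.8% and 62.3% in the WT libraries. The share of Loxl1 was 39.2%, 38.7% and 38.6% in FR, against 19.4%, 19.9% and 19.7% in WT. The level of Loxl1 over that of Lox was 0.836 ± 0.0189 in FR and 0.314 ± 0.00416 in WT (SD, n = 3 each), and the groups did not overlap.

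Among the members with scavenger receptor domains, the level of Loxl4 over that of Loxl3 was 2.94 ± 0.0542 in FR and 1.11 ± 0.0304 in WT (SD, n = 3 each). Loxl3 made up 3.68% ± 0.0880 of the total in FR and 8.34% ± 0.105 in WT, and Loxl4 10.8% ± 0.456 in FR and 9.25% ± 0.289 in WT (SD, n = 3 each). Loxl2 made up 0.256% ± 0.115 in FR and 0.154% ± 0.0475 in WT, with overlapping groups. The exact two-sided permutation test over the 6 libraries, which cannot give less than 0.1 for 3 against 3, gave p = 0.1 for the family total, both ratios and each share except that of Loxl2, where p = 0.3.

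**Figure D3:**
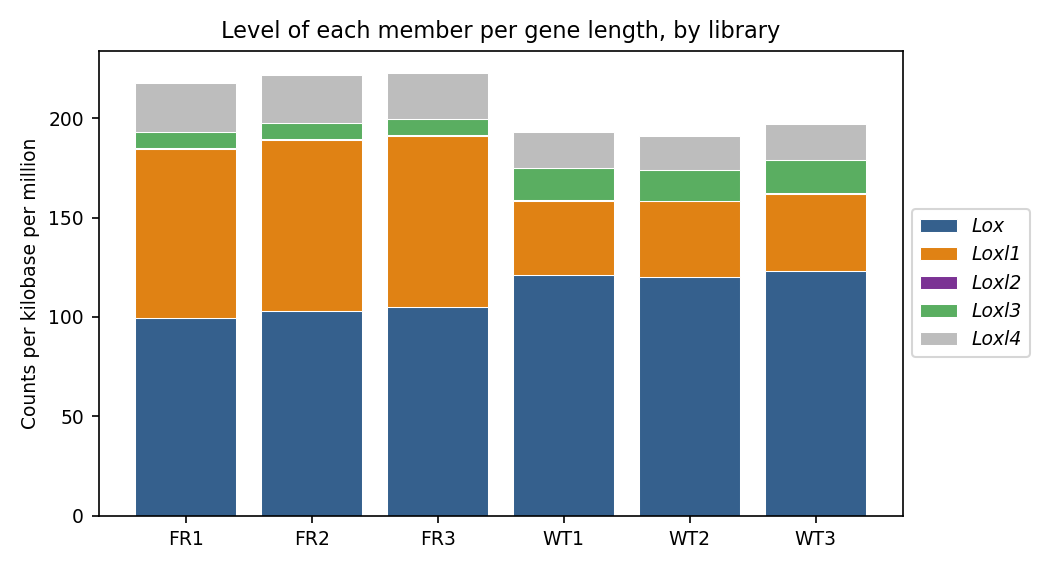
Level of each member per gene length (CPM per kilobase) stacked for every library, FR on the left and WT on the right. The total is 218 to 223 in FR and 192 to 197 in WT, and the Loxl1 segment is about as tall as that of Lox in FR (Loxl1 over Lox 0.836) but much shorter in WT (0.314).

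Fibrillar collagens, the best-known substrates of the family, fell in FR. Of 11 fibrillar collagen genes, 10 could be tested, of which 8 fell and 2 rose (median log2 fold change −1.81). Col1a1, the alpha 1 chain of type I collagen, had 635 ± 9.34 CPM in FR and 5055 ± 95.6 CPM in WT (SD, n = 3 each; log2 fold change −2.99 ± 0.02 SE; edgeR adjusted p = 3.38e-35). Col11a1, a chain of type XI collagen, fell by 7.01 on the log2 scale and Col5a2, of type V collagen, by 2.03. Col27a1 was among the genes that rose, with a log2 fold change of 0.64 ± 0.08 SE. Summed per gene length, the tested fibrillar collagens had levels of 801, 796 and 793 in FR, against 2900, 2930 and 2970 in WT. Col1a2 made up most of this sum, with means of 580.5 in FR and 1736 in WT (log2 fold change −1.58 ± 0.02 SE). Col1a1 came next, with means of 107 in FR and 852 in WT. Ratios to the sum therefore rest mainly on Col1a2 and Col1a1.

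Set against this sum, the transcripts of the family stood at 27.2, 27.9 and 28.1 per 100 of fibrillar collagen in FR, against 6.65, 6.54 and 6.64 in WT, a 4.19-fold difference. For Lox alone the values were 12.9 ± 0.413 per 100 in FR and 4.14 ± 0.0268 in WT, and for Loxl1 alone 10.8 ± 0.105 in FR and 1.30 ± 0.0106 in WT (SD, n = 3 each). Lox thus stood higher relative to collagen in FR although its own level was lower there. The groups did not overlap in any of these 3 ratios, for each of which the exact permutation test gave its smallest possible p of 0.1. They are ratios of mRNA and give no amount of enzyme or of crosslinks.

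**Figure D4:**
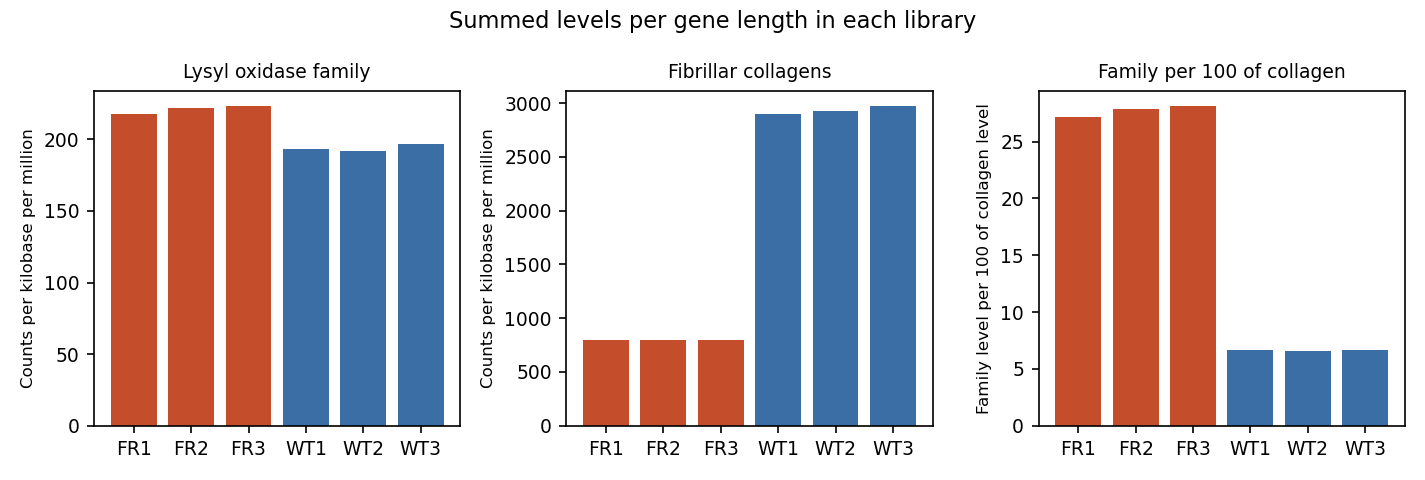
Summed level per gene length of the 5 lysyl oxidase genes (left), of the 10 tested fibrillar collagen genes (middle) and of the family per 100 of collagen (right) in each library, with FR to the left of WT in every panel. The collagen sum is 793 to 801 in FR and 2900 to 2970 in WT, and the ratio is 27.2 to 28.1 in FR and 6.54 to 6.65 in WT.

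Type IV collagen, the basement membrane substrate associated with Loxl2, also fell. Of its 6 chains, 4 could be tested and all 4 were lower, with a median log2 fold change of −0.46. Col4a1 was at −0.66 ± 0.03 SE, Col4a2 at −0.64 ± 0.03 SE and Col4a6 at −0.29 ± 0.03 SE. Elastin itself was at the detection limit, with 0, 1 and 1 counts of Eln in FR and 0, 1 and 0 counts in WT. Of the 10 elastic fibre genes 7 could be tested, and 6 fell, all but Mfap5 (median of the 7 log2 fold changes −1.75). Fbn1, the microfibril protein fibrillin 1, had 7.64 ± 0.912 CPM in FR and 106 ± 1.30 CPM in WT (SD, n = 3 each), and the microfibril-associated Emilin1 and Emilin2 were at log2 fold changes of −1.75 ± 0.03 SE and −2.76 ± 0.06 SE. Mfap5 was at 0.62 ± 0.29 SE (edgeR adjusted p = 0.0622). Loxl1, the member tied to elastic fibres in other tissues, was therefore measured in cells with almost no Eln transcript.

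Genes for proteins that process lysyl oxidases or place them on the matrix also moved in both directions. Of 15 such genes 12 could be tested, of which 8 fell and 4 rose, with a median log2 fold change of −0.54. Bmp1, the proteinase that releases the mature enzyme from the Lox precursor, had 62.0 CPM in FR and 84.6 CPM in WT (log2 fold change −0.45 ± 0.04 SE). Its relatives Tll1 and Tll2 had at most 1 count in any library. Adamts2, a procollagen N-proteinase that also cleaves the Lox precursor, rose to 54.7 ± 1.49 CPM in FR, against 26.01 ± 0.966 CPM in WT (SD, n = 3 each; log2 fold change 1.07 ± 0.05 SE).

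Among the proteins that bind lysyl oxidases, Postn (periostin, which links Bmp1 to Lox on the fibronectin matrix) had 15, 33 and 31 counts in FR against 6366, 5758 and 5383 counts in WT. Fn1, fibronectin, was at a log2 fold change of −1.22 ± 0.02 SE. Efemp2, or fibulin 4, which brings Lox to elastic fibres and helps load it with copper, was at −0.63 ± 0.03 SE. Fbln5, fibulin 5, a partner of Loxl1, had 16.7 ± 0.784 CPM in FR and 55.5 ± 0.242 CPM in WT (SD, n = 3 each; log2 fold change −1.74 ± 0.05 SE). Fmod, fibromodulin, which binds Lox at collagen, had 0 counts throughout FR and 35, 29 and 25 counts in WT, at least 8.11-fold lower when set against 3 counts per FR library, and the median of the list was −0.54 with it at this bound too. The edgeR adjusted p of each of these 5 genes was 9.25e-09 or smaller. Not all such genes fell, as Ltbp4 and Thbs1 of the same list were called higher. Their log2 fold changes were 0.32 ± 0.04 SE and 0.11 ± 0.03 SE.

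The hydroxylation of collagen lysines is the step that decides which crosslinks lysyl oxidases can form. Of 10 genes for this step and its partners, 9 could be tested, and 8 fell and 1 rose (median log2 fold change −0.19). Of these, 8 and not 9 were called with DESeq2, with the replicate block and without FR2, FR3, WT1 or WT3. Fkbp10, a chaperone that acts on lysyl hydroxylase 2, was at −0.80 ± 0.03 SE, the collagen chaperone Serpinh1 at −0.49 ± 0.02 SE and the galactosyltransferase Colgalt1 at −0.35 ± 0.03 SE. Plod1, a lysyl hydroxylase, was the gene that rose, at 0.17 ± 0.04 SE. The lysyl hydroxylases Plod2 and Plod3 were both at −0.19 (SE 0.04 and 0.03).

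Genes of copper uptake, delivery and binding did not move one way. The list covers copper handling in general, with Sod1, Cox11 and Sco1 in it, and its counts do not describe the supply to lysyl oxidases alone. Of 15 genes 14 could be tested, of which 6 rose and 6 fell, the other two falling short of the threshold (median log2 fold change 0.01). Of these, 11 and not 12 were called with DESeq2 and without FR1, FR2, FR3, WT2 or WT3. Atp7a, the pump that delivers copper to lysyl oxidases in the Golgi, had 22.6, 19.7 and 22.4 CPM in FR, against 32.9, 34.1 and 33.6 CPM in WT (log2 fold change −0.64 ± 0.06 SE; edgeR adjusted p = 1.95e-10). Slc31a1, the main copper importer of the cell surface, was at 0.21 ± 0.04 SE, and its relative Slc31a2 at −1.51 ± 0.11 SE. The metal-binding metallothioneins Mt2 and Mt1 were at −0.93 ± 0.03 SE and −0.46 ± 0.03 SE. Atp7a, like Bmp1, Tll1, Efemp2, Fmod, Ltbp4, Thbs1, Eln, Plod2 and Plod3 above, was named for its role after its values were seen. Col1a2 was named for its level, also after its values were seen.

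Of 3 other copper-containing amine oxidases, Aoc1 was listed at 0 in every library, and Aoc2 and Aoc3 were both called higher from low levels. Aoc2 had 2.76 ± 0.357 CPM in FR and 0.996 ± 0.452 CPM in WT, and Aoc3 1.01 ± 0.166 CPM in FR and 0.496 ± 0.0437 CPM in WT (SD, n = 3 each). Their edgeR adjusted p-values were 3.83e-05 for Aoc2 and 0.00999 for Aoc3. Only 1 of these 2 calls was left without FR2. The stricter filter on low counts, a mean of at least 1 CPM, left Aoc3 out of the test, and Aoc2 was called with it.

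Among genes known to regulate the family, a joint list for TGF-beta signalling, hypoxia and mechanical signalling was mostly lower in FR. Of 18 genes 17 could be tested, with 13 lower, 3 higher and 1 not called (median log2 fold change −0.31). Tgfb3, a TGF-beta ligand, had 16.3 ± 0.366 CPM in FR and 43.7 ± 1.40 CPM in WT (SD, n = 3 each; log2 fold change −1.42 ± 0.06 SE), and the receptor gene Tgfbr2 was at −0.80 ± 0.03 SE. Smad3 and Smad4, also of TGF-beta signalling, rose, at 0.173 ± 0.038 SE and 0.205 ± 0.033 SE. For hypoxia only Hif1a could be tested, at −0.397 ± 0.028 SE, as Epas1 had at most 1 count in any library. Smad3, Smad4, Hif1a and Epas1 were named after their values were seen. The transcriptional coactivators Wwtr1 (TAZ) and Yap1 differed in sign, at −0.60 ± 0.03 SE and 0.36 ± 0.03 SE. Of the 6 SNAIL, TWIST and ZEB genes, whose products include the Loxl2 and Loxl3 partner Snai1, 4 fell and 2 rose. Snai1 was at −1.09 ± 0.06 SE, Zeb1 at −0.96 ± 0.04 SE and Twist2 at 0.81 ± 0.06 SE. Lists of this kind are described only by their counts and medians, beside 70.1% of all genes called and a median of 0.00 over all genes.

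**Figure D5:**
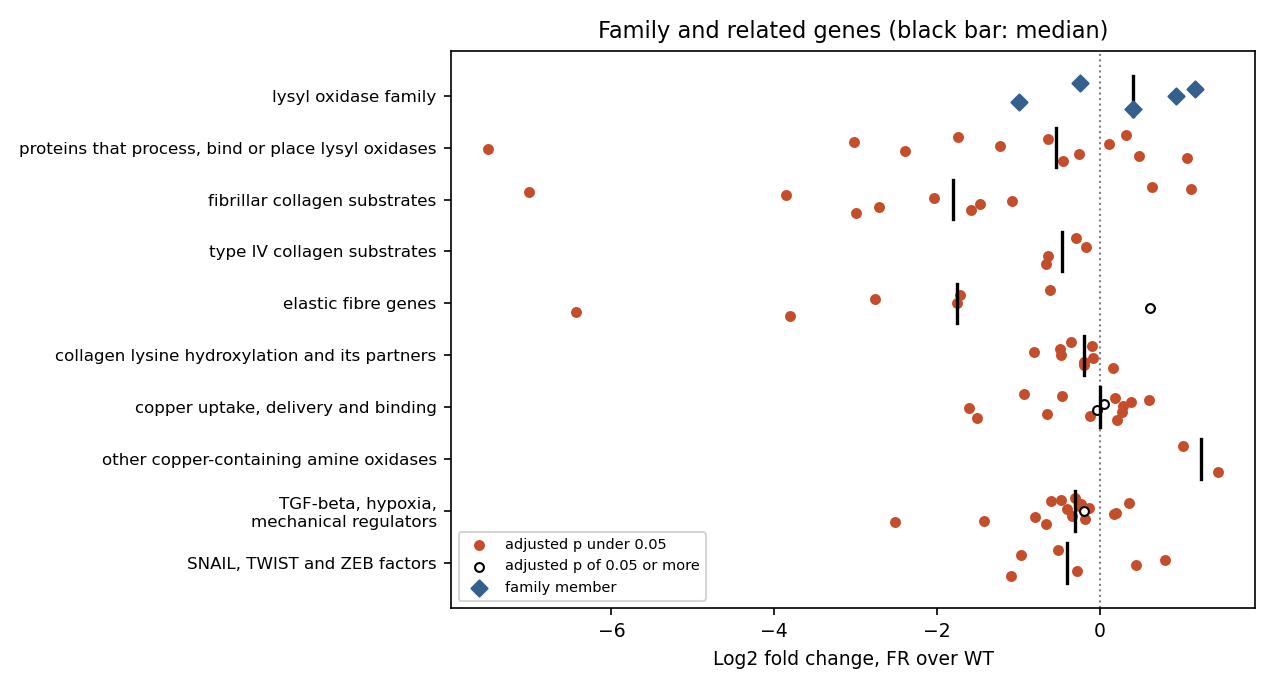
Log2 fold change, FR over WT, of the family (diamonds) and of the tested genes in 9 lists of related genes (circles, open where the adjusted p was 0.05 or more), with a black bar at each median and a dotted line at the median of all genes. The family has a median of 0.41, above the −1.81 of fibrillar collagens and the −1.75 of elastic fibre genes, and Fmod, at 0 counts in FR, is drawn at its bound.

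The genes most alike each member were sought by the root-mean-square distance between log2 CPM profiles over the 6 libraries, each centred on its own mean. For Lox these were Galnt1, Vps35 and Mthfd2 (distances 0.013, 0.016 and 0.016). For Loxl1 they were Gpnmb, Gsta4 and Mtap (0.026, 0.026 and 0.029). Gpnmb, which encodes the glycoprotein osteoactivin, had 736 ± 2.29 CPM in FR and 320 ± 6.70 CPM in WT (SD, n = 3 each). For Loxl3 they were Uggt1, Igf2r and Nacc2 (0.015, 0.017 and 0.022), and for Loxl4 Dusp16, Senp5 and Zfp646 (0.011, 0.018 and 0.021). The closest profiles to Loxl2, of Zbtb8a, Akr1c12 and Cnih2, lay much farther away (0.360, 0.398 and 0.399).

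With only 2 groups, such likeness is common. Within a distance of 0.25 lay 6391 of 10009 eligible genes for Lox, 5168 for Loxl4, 1127 for Loxl3, 476 for Loxl1 and 0 for Loxl2. Among the 3 closest genes of any member stood no other member, where Lox, Loxl1, Loxl3 and Loxl4 could have appeared and Loxl2, below the limit of 5 CPM, could not.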

How the data were processed

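Per the labels' protocols, poly(A) RNA of 6 samples was fragmented, reverse transcribed with random hexamers, amplified and sequenced as paired ends. Per the submitters' processing notes, fastp, HISAT, RSEM and the build GRCm39 were used, and settings and annotation release are not given in the sources used here. The authors deposited expected counts per gene, not scaled to depth, with group means, which were not used, and a gene length. RSEM divides reads that match several genes by estimation.

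Expected counts were rounded. The filter on low counts was filterByExpr of edgeR 4.0.16 (R 4.3.3). Counts were scaled with TMM factors and tested, FR over WT, with the robust quasi-likelihood F-test over all 14889 genes. The Benjamini-Hochberg adjusted p had to be under 0.05. The SE is the log2 fold change divided by the square root of F. Single values were compared with exact two-sided permutation tests. Of each related list the 3 genes of smallest adjusted p are named, with the first in the other direction where these share a sign, and likeness was sought among genes with a mean of at least 5 CPM and a proper symbol. Members and lists were chosen with earlier results of these data known. The edgeR step was tested on simulated data, where it called 48% of 1.2-fold changes, 80% of 2-fold changes and 0.076% of unchanged genes. That simulation left 14474 of 14674 genes unchanged, whereas 70.1% of genes were called in the data. It therefore cannot check the scaling or the error rate at such a share. Alternatives were 2 other scalings, 2 other filters, counts not rounded, a fit that is not robust, DESeq2 1.42.0, removal of the 10 most abundant genes, limma-voom (limma 3.58.1), the replicate number as a block and each library left out. GENCODE M21 (GRCm38) served for sequences and overlaps only.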

Additional observations from a re-analysis of the deposited data

How the results depend on the processing

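Lox, Loxl1, Loxl3 and Loxl4 kept their direction and an adjusted p under 0.05 under all 16 alternatives. Loxl2 kept its direction but not its call with limma-voom (log2 fold change 0.88) and with 3 of 6 libraries left out in turn, where it ranged between 0.68 and 1.24 with adjusted p between 0.00110 and 0.129. It had 15.10 to 50.85 counts per library, and the cause was not tested. Of the other copper amine oxidases, Aoc3 did not pass the stricter filter and Aoc2 was called with it. With libraries left out 1 to 2 were called, 1 of them without FR2. Levels not divided by gene length gave log2 ratios of 0.10 for the family total and 1.99 for its ratio to fibrillar collagen, against 0.19 and 2.07, and differences in share, FR minus WT, of −14.7 points for Lox, 17.7 for Loxl1 and −4.51 for Loxl3, against −16.2, 19.2 and −4.67. Deviations of same-numbered libraries from their group means did not correlate (r of −0.017, −0.004 and −0.028). A correlation over all genes can miss a pairing that touches few of them, and the labels name none. Whether the numbers pair samples is therefore not known. With the replicate block Loxl2 was at 0.89, all 5 members were called and 10292 genes were called in all, against 10440. No scaling moved the median of all genes by over 0.1 on the log2 scale. This cannot test the scaling, since TMM and median-of-ratios factors are built to place the typical gene near 0. All levels here are relative to the counts of a library and give no amount per cell. Leaving libraries out of the family total and all settings of the collagen ratio were added after seeing the data.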
